A study of Mus musculus with 9 samples.

Results

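The genes described here are the TRIM (tripartite motif) family in mouse ILC2s (type 2 innate lymphoid cells), taken as every gene whose symbol is Trim followed by a digit. They number 66 of the 23234 genes in the expression tables. ILC2s are lymphocytes without antigen receptors that make type 2 cytokines in response to the alarmin IL-33. The cells were taken from wild-type C57BL/6 mice, from the lymphoid clusters associated with fat, and were cultured for 48 h in 1 of 3 ways. All 3 groups received IL-33 (10 ng/ml): the control group received it alone, another also received IFN-γ (10 ng/ml), and the last also received IL-27 (10 ng/ml). Each group had 3 RNA-seq libraries, numbered 1 to 3, and the comparisons ask what each added cytokine did to expression in cells already given IL-33. The labels do not say that libraries came from separate cultures or mice, so the spread that the p-values are judged against may be technical. No library without IL-33 was used here, so the level of any Trim gene before IL-33 is not known from these data.

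TRIM proteins share an N-terminal RING domain, B-box zinc fingers and a coiled coil, and most act as E3 ubiquitin ligases, the enzymes that attach ubiquitin to chosen targets. A C-terminal domain, most often PRY-SPRY, picks the target. A subset of the family is transcribed in response to interferons, and its members restrict viruses or tune the RIG-I, STING and Toll-like receptor pathways; other members do unrelated work such as gene silencing or building centrosomes. Interferon regulatory factors bind a short DNA motif near many of the genes that interferons switch on.

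Interferon-inducible members were taken from a list of 16 genes known for this behaviour, of which 14 were in the tables and 11 were expressed well enough to test. The list was chosen with earlier results of these data known. Contrasts between inducible and other members are therefore descriptions and not independent tests. The tested genes were those with a mean of at least 1 FPKM (mapped fragments scaled for transcript length and for the size of the library) over the 9 libraries. In all, 37 of the 66 Trim genes were tested, 11 inducible and 26 other, among 11014 tested genes of any kind. Tested Trim genes had mean levels from 1.10 FPKM to 97.5 FPKM, with a median of 12.3 FPKM against 14.2 FPKM for all tested genes. The highest mean among the untested members was 0.286 FPKM, in Trim2. Trim45 was the single tested member whose mean in the IL-33 group was below 1 FPKM, so it entered through its level in the other groups.

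The 29 untested members were barely detected. Of these, 20 were listed at 0 in all 9 libraries, and no untested gene exceeded 0.787 FPKM in any library. The genes at 0 in every library included Trim63, Trim54 and Trim55, ligases known from striated muscle, Trim72 of muscle membrane repair, Trim71 of early embryos and Trim9 of neurons. Among the inducible genes, Trim6 was detected in 1 library only (0.300 FPKM, IL-33 library 3). Trim30b was detected in 2 libraries, at 0.787 FPKM in IFN-γ library 1 and 0.363 FPKM in IL-27 library 2. Trim69 was also detected in 2, at 0.654 FPKM in IL-33 library 1 and 0.664 FPKM in IL-27 library 1. Trim5 and Trim30c were not analysed here. The steps between low values put each library at an estimated 865801 to 995025 fragments, so 1 fragment in a 2 kb transcript was worth 0.503 to 0.578 FPKM, and 3 fragments, the number that a listed 0 still allows, 1.51 to 1.73 FPKM. These absent or near-absent members are therefore below detection at this depth rather than shown to be silent.

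Promoters of the inducible members are shown first, because several of the genes that rose carry the same short motif close to the transcription start. The interferon-stimulated response element (ISRE), bound by interferon regulatory factors, was searched as GAAA, any 2 bases and GAAA again, on both strands of RefSeq promoters (250 bases before to 50 after each start, GRCm38.p6). Each window below was located in mm9, the build of the expression files, by an exact match of its 300-base promoter, and runs 5′ to 3′ on the gene's own strand from 60 bases before the start to 30 after it, except that of Trim26, which covers positions -180 to -91. Capitals mark the motif, which reads TTTC, 2 bases and TTTC where it lies on the opposite strand. The first 5 genes lie in the chromosome 7 cluster, Trim21 lies elsewhere on that chromosome and Trim26 in the major histocompatibility complex, and Trim56 and Trim25, without a match, are given for contrast.
Trim12a chr7:111463980-111464069 (minus strand): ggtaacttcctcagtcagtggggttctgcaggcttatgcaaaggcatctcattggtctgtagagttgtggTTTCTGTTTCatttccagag
Trim12c chr7:111501834-111501923 (minus strand): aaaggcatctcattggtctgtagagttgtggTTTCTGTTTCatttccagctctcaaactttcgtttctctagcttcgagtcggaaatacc
Trim30a chr7:111613678-111613767 (minus strand): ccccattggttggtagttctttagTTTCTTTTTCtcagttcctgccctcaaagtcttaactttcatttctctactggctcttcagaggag
Trim30d chr7:111656334-111656423 (minus strand): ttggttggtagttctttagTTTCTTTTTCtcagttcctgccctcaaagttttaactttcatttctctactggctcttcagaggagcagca
Trim34a chr7:111392911-111393000 (plus strand): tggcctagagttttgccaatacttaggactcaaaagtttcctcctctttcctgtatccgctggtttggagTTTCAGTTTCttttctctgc
Trim21 chr7:109713967-109714056 (minus strand): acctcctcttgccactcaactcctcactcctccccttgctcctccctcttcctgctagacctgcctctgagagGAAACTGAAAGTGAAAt
Trim26 chr17:36973911-36974000 (plus strand): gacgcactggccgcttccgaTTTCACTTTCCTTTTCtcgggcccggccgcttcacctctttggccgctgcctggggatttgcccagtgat
Trim56 chr5:137592048-137592137 (minus strand): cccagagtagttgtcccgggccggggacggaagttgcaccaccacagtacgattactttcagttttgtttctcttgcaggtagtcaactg
Trim25 chr11:88860657-88860746 (plus strand): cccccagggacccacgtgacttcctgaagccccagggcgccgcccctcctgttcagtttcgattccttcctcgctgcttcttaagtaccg

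The RefSeq table held a promoter for 50 of the 66 members. The ISRE letters were present in 7 of the 10 tested inducible members with a promoter (Trim12a, Trim12c, Trim21, Trim26, Trim30a, Trim30d and Trim34a), in none of 17 tested other members and in 1 of 23 untested members, Trim2. Over all promoters of the same length, 3.44% (1131 of 32851) held the motif, and counted per gene, as the Trim members are, 3.99% (1079 of 27025) did. The windows of Trim12a and Trim12c share the stretch around the motif, and those of Trim30a and Trim30d are nearly the same. The 7 genes are therefore not independent sequences. In Trim12a and Trim34a it began 11 bases into the transcript, in Trim12c at position -29, and in Trim30a and Trim30d at positions -36 and -41. Trim30a has a second annotated start, where the motif began at base 3 of the transcript. Trim21 held a pair of overlapping matches that began at bases 14 and 20 of the transcript, and Trim26 a pair that began at positions -160 and -154. Trim34b and Trim56 had no match in their windows, and for Trim14 no promoter entry was used. The Trim34b window, not shown, lies at a RefSeq start (chr7:111477985 in mm9) inside the gene. The gene is annotated from 111448744, and that start was not searched. A letter match is a description of the sequence, and binding was not measured.

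With IFN-γ, most of the tested inducible members rose, Trim25 and Trim26 did not pass the test, and no other member of the family passed it. At an adjusted p under 0.05 (limma on log2(FPKM + 1), Benjamini-Hochberg over all 11014 genes), 8 of the 11 tested inducible members were higher than with IL-33 alone, and none of the 26 others was higher or lower. Over all tested genes, 2.19% were called higher and 0.717% lower. A wider list also counts Trim8, Trim35, Trim38, Trim58 and Trim65 as inducible, which are placed among the others here. Of its 14 tested genes, 8 were called higher. Trim8, Trim35 and Trim65 were not called, and Trim38 and Trim58 were listed at 0 in all 9 libraries. The split between inducible and other members therefore depends on where the list is cut. The same library numbers deviated together across the groups, and with the library number as a block 9 of the 11 inducible members and still none of the others were called, against 6.51% of all genes higher and 4.66% lower. The median log2 fold change was 1.65 for the inducible members, 0.09 for the other members and 0.03 for all tested genes. All fold changes below are on the log2(FPKM + 1) scale, which understates the change of genes with low levels.

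**Figure D1:**
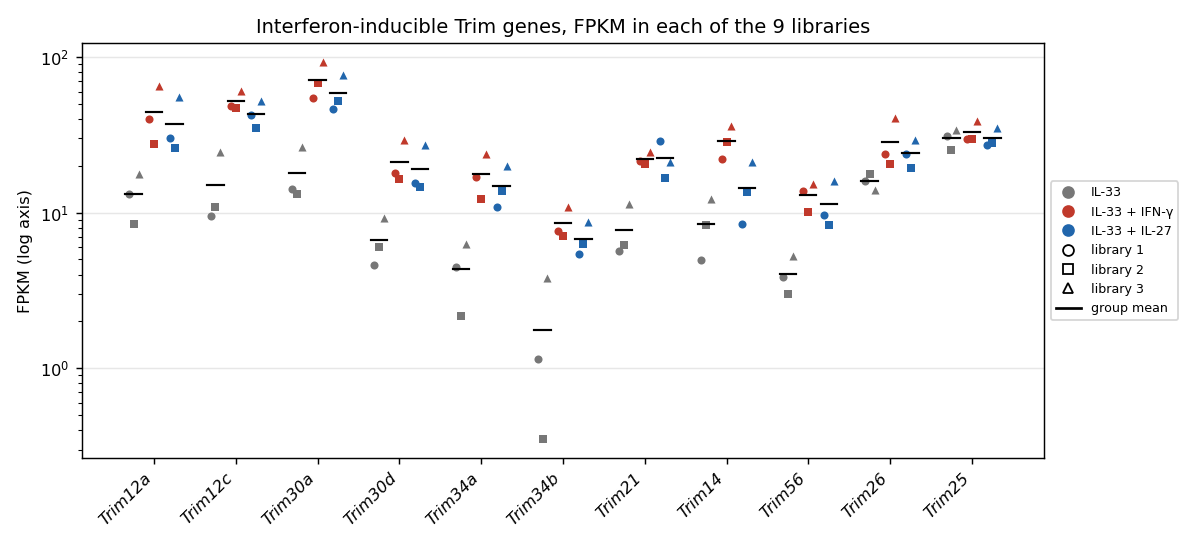
FPKM (log axis) of the 11 tested interferon-inducible Trim genes in each of the 9 libraries, by group (colour) and library number (symbol), with the group mean as a bar. For 10 genes, from Trim12a to Trim26, all IFN-γ libraries lie above all IL-33 libraries (11.9% of all tested genes do so); Trim25 at the right sits at 25.4 to 38.6 FPKM in every group.

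Trim30a, which restrains Toll-like receptor signalling by promoting loss of the adaptors TAB2 and TAB3, was the most abundant inducible member after either cytokine. Its FPKM was 14.3, 13.2 and 26.4 with IL-33 alone, 54.5, 67.9 and 92.7 with IFN-γ and 46.4, 52.1 and 76.6 with IL-27. The lowest value with either added cytokine was above the highest value with IL-33 alone, and library 3 was the highest of its group each time. The means were 17.9 ± 7.34, 71.7 ± 19.4 and 58.4 ± 16.0 FPKM (SD, n = 3 each), resting on an estimated 67, 270 and 221 fragments per library. The log2 fold change was 1.97 ± 0.31 (SE) with IFN-γ (limma adjusted p = 0.00771), a 3.92-fold rise, and 1.68 ± 0.31 with IL-27 (limma adjusted p = 0.0377), a 3.21-fold rise.

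Trim30d is the neighbour and close relative of Trim30a. Its FPKM was 4.63, 6.05 and 9.30 with IL-33 alone, 18.1, 16.4 and 29.5 with IFN-γ and 15.6, 14.6 and 27.1 with IL-27, so that neither treated group overlapped the control. It rose with IFN-γ by a log2 fold change of 1.54 ± 0.33 (limma adjusted p = 0.0386). With IL-27 the log2 fold change was 1.38 ± 0.33, with limma adjusted p = 0.113 without and 0.00301 with the library block.

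Trim12a and Trim12c are rodent relatives of primate TRIM5, which blocks incoming retroviral capsids. Trim12c measured 9.55, 10.8 and 24.5 FPKM with IL-33 alone, 48.3, 47.2 and 60.4 FPKM with IFN-γ and 42.3, 34.8 and 52.2 FPKM with IL-27. The control library numbered 3 stood above the other 2 controls but below every treated library. The log2 fold change was 1.84 ± 0.32 with IFN-γ (limma adjusted p = 0.0144). With IL-27 it was 1.57 ± 0.32, with limma adjusted p = 0.0585 without and 0.00523 with the block. Trim12a measured 13.1, 8.46 and 17.8 FPKM with IL-33 alone, 39.8, 27.4 and 65.3 FPKM with IFN-γ and 30.1, 26.1 and 55.4 FPKM with IL-27. Its groups did not overlap the control either, but its treated libraries spread widely, with library 3 the highest in each group. Its log2 fold change with IFN-γ was 1.65 ± 0.39 (limma adjusted p = 0.0551 without and 0.00044 with the block), and with IL-27 it was 1.41 ± 0.39 (0.185 without and 0.0015 with the block).

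Trim34a and Trim34b are the mouse relatives of human TRIM34, and Trim34b was the least abundant member that rose. Trim34a was at 4.49, 2.16 and 6.30 FPKM with IL-33 alone, 17.0, 12.3 and 23.7 FPKM with IFN-γ and 10.9, 13.7 and 19.9 FPKM with IL-27. Trim34b was at 1.15, 0.350 and 3.80 FPKM with IL-33 alone, 7.59, 7.08 and 10.9 FPKM with IFN-γ and 5.42, 6.30 and 8.70 FPKM with IL-27. For both genes every treated library exceeded every control library. With IFN-γ the log2 fold change was 1.85 ± 0.36 for Trim34a (limma adjusted p = 0.0258) and 1.96 ± 0.43 for Trim34b (limma adjusted p = 0.0428). With IL-27 it was 1.62 ± 0.36 for Trim34a (limma adjusted p = 0.0881 without and 0.00747 with the block) and 1.68 ± 0.43 for Trim34b (0.149 without and 0.0205 with the block). The control mean of Trim34b rested on about 3 fragments per library, and with a pseudocount of 0.1 in place of 1 its IFN-γ call was lost (limma adjusted p = 0.0634).

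These 6 genes lie close together on chromosome 7 (mm9). The inducible gene Trim30b matched 2 annotated genes and was not placed on the map. In start order they are Trim34a (chr7:111392971-111489207, plus strand), Trim12a (chr7:111448408-111463980, minus), Trim34b (chr7:111448744-111485423, plus), Trim12c (chr7:111487268-111501876, minus), Trim30a (chr7:111557539-111613707, minus) and Trim30d (chr7:111618528-111656363, minus). With Trim6 on the left (chr7:111367307-111383666) and the pseudogene Trim30e-ps1 on the right (chr7:111681473-111683875), both untested, the 8 mapped members span 317 kb. All 6 tested genes mapped to the cluster rose with IFN-γ in the blocked fit, and 5 of the 6, all but Trim12a, without the block.

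**Figure D2:**
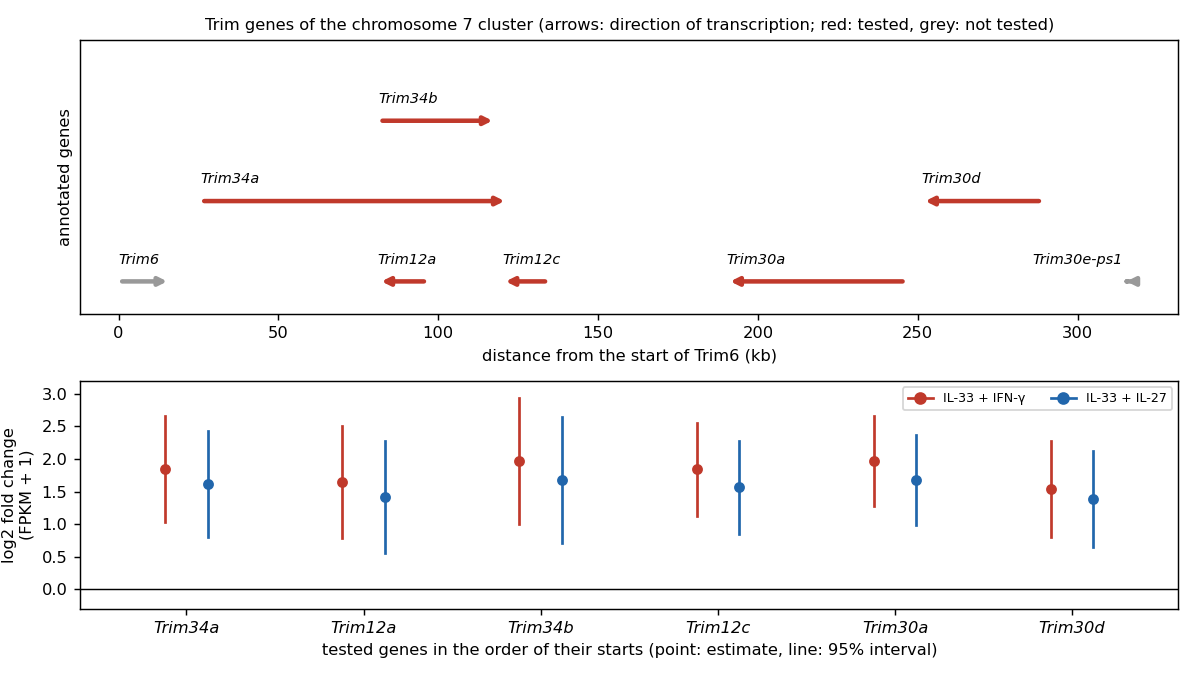
Upper panel: the 8 mapped Trim genes of the chromosome 7 cluster, as arrows in the direction of transcription against distance from the start of Trim6 in kb. Lower panel: log2 fold change of FPKM + 1 against IL-33 alone for the 6 tested genes, with 95% intervals; every interval lies above 0 for both cytokines.

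The cluster genes resemble and overlap one another, which limits how well reads can be assigned. Of all 50-base words in the transcripts of Trim34b, 74.7% also occur in another gene, 72.3% in Trim34a, and for Trim34a 46.6% are shared, 38.3% with Trim34b. Trim12c shares 33.7% of its words and Trim12a 22.4%, in both cases mostly with Trim5 (24% and 13.2%). Trim30d and Trim30a share 7.73% and 3.99%, chiefly with each other. In addition, exons of Trim12a overlap those of Trim34b and exons of Trim12c those of Trim34a on the opposite strand, and the library kit does not mark strand. The values of Trim34a, Trim34b, Trim12a and Trim12c as separate genes are therefore uncertain. Trim21 shared no such word with another gene, Trim14 none, and Trim56 0.0539%.

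3 inducible members outside the cluster rose with IFN-γ as well. Trim21 (chr7:109706436-109713983, minus strand), a cytosolic antibody receptor that directs antibody-coated viruses to the proteasome, was at 5.69, 6.16 and 11.3 FPKM with IL-33 alone, 21.4, 20.5 and 24.5 FPKM with IFN-γ and 28.9, 16.8 and 21.3 FPKM with IL-27. All 6 treated libraries were above the 3 controls, and the highest single value was in the IL-27 group. Its log2 fold change was 1.46 ± 0.28 with IFN-γ (limma adjusted p = 0.0234) and 1.44 ± 0.28 with IL-27 (limma adjusted p = 0.0478).

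Trim56 (chr5:137581514-137592079, minus strand), a ligase tied to STING and Toll-like receptor 3 signalling, has no PRY-SPRY domain. Its FPKM was 3.85, 2.98 and 5.30 with IL-33 alone, 13.8, 10.1 and 15.3 with IFN-γ and 9.61, 8.28 and 16.0 with IL-27, again without overlap between either treated group and the control. The log2 fold change was 1.49 ± 0.30 with IFN-γ (limma adjusted p = 0.0277) and 1.26 ± 0.30 with IL-27 (limma adjusted p = 0.106 without and 0.00802 with the block). By domain class, 8 of the 22 tested PRY-SPRY members and 1 of the 15 tested members of other classes, Trim56, rose with IFN-γ in either fit. Over all tested genes 6.51% were called higher with the block. The class count largely repeats the inducible list, in which 13 of 14 genes have the PRY-SPRY domain, and 6 of the 8 lie in the chromosome 7 cluster. A link between domain and response was not tested.

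Trim14 (chr4:46506653-46549013, minus strand), which lacks the RING domain and serves as an adaptor at the mitochondrial protein MAVS, was the member whose values differed most between the cytokines among the inducible genes. It was at 4.97, 8.34 and 12.2 FPKM with IL-33 alone, 22.2, 28.4 and 36.3 FPKM with IFN-γ and 8.40, 13.7 and 21.2 FPKM with IL-27. The IFN-γ libraries lay above all 6 other libraries, while the IL-27 libraries overlapped the controls. The log2 fold change was 1.70 ± 0.37 with IFN-γ (limma adjusted p = 0.0423) and 0.69 ± 0.37 with IL-27 (limma adjusted p = 0.638 without and 0.0534 with the block). Exons of Trim14 overlap those of Nans on the opposite strand, so some of its reads cannot be told apart from that gene's.

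2 tested inducible members did not pass the test with IFN-γ. Trim26 (chr17:36974079-36996343, plus strand), a gene of the major histocompatibility complex region, was at 15.9, 17.7 and 14.0 FPKM with IL-33 alone, 23.9, 20.4 and 40.7 FPKM with IFN-γ and 23.7, 19.3 and 29.5 FPKM with IL-27. Neither treated group overlapped the control, but the log2 fold changes of 0.74 ± 0.27 and 0.56 ± 0.27 had limma adjusted p of 0.222 and 0.563, and 0.0852 and 0.232 with the block. Trim25 (chr11:88860690-88881607, plus strand), the ligase that attaches ubiquitin to the RNA sensor RIG-I, was at 31.1, 25.4 and 34.0 FPKM with IL-33 alone, 29.9, 29.9 and 38.6 FPKM with IFN-γ and 27.2, 28.2 and 34.9 FPKM with IL-27. Its groups overlapped completely. Its log2 fold change with IFN-γ was 0.12 ± 0.20, with a 95% interval of -0.32 to 0.55, and limma adjusted p = 0.851. With IL-27 the log2 fold change was 0.00 (95% interval -0.44 to 0.44). With IL-33 alone Trim25 was the most abundant of the 11 inducible genes, at 30.2 ± 4.40 FPKM (SD, n = 3).

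The 26 other tested members included the most abundant gene of the family, and none was called in any comparison in either fit. Trim28, the corepressor that KRAB zinc finger proteins recruit to silence retroelements, was at 116, 105 and 95 FPKM with IL-33 alone, 115, 100 and 74.1 FPKM with IFN-γ and 112, 91.7 and 67.8 FPKM with IL-27. Library 3 was the lowest in each group, the opposite of most inducible genes, and the groups overlapped. Its log2 fold changes were -0.15 ± 0.23 with IFN-γ and -0.24 ± 0.23 with IL-27 (limma adjusted p = 0.836 and 0.813). The other tested PHD-bromodomain members were less abundant, with Trim24 at 9.03 ± 1.78 FPKM and Trim33, a regulator of SMAD signalling, at 7.84 ± 1.14 FPKM with IL-33 alone.

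**Figure D3:**
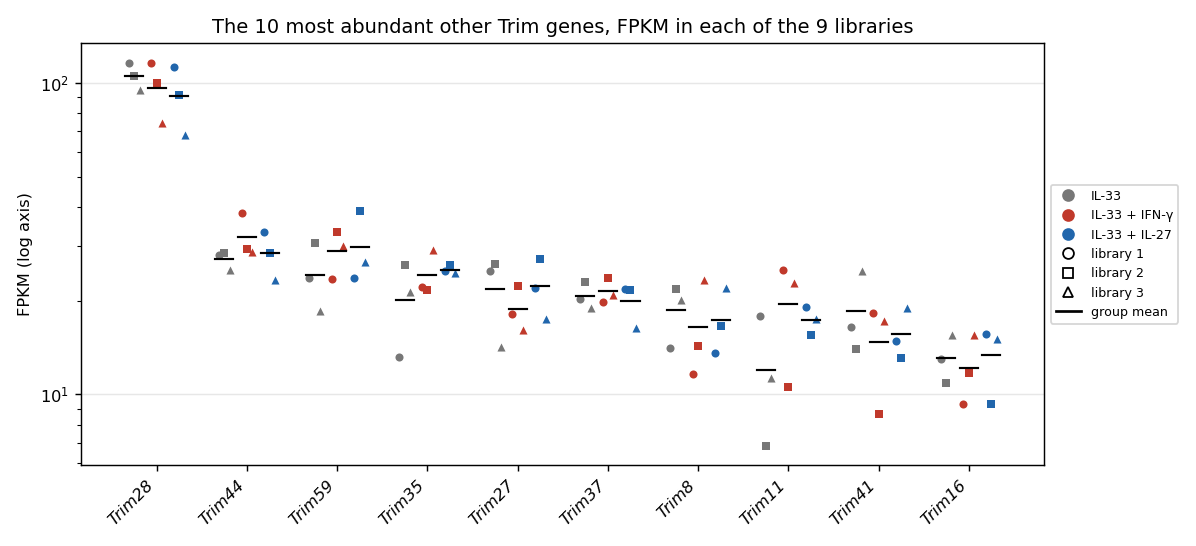
FPKM (log axis) of the 10 most abundant other Trim genes in each of the 9 libraries, by group (colour) and library number (symbol), with the group mean as a bar. Trim28 lies at 67.8 to 116 FPKM and no gene shows a shift between groups that passed the test.

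The next most abundant other members with IL-33 alone were Trim44 (27.2 ± 1.83 FPKM, SD, n = 3), which lacks the RING domain, Trim59 (24.2 ± 6.03), a membrane-anchored member, Trim27 (21.8 ± 6.57), a ligase of endosomal sorting, and Trim37 (20.7 ± 2.04), a ligase that limits centrosome assembly. Trim35 (20.1 ± 6.48), Trim8 (18.6 ± 4.05), known as a positive regulator of NF-κB signalling, Trim41 (18.5 ± 5.72), Trim16 (13.1 ± 2.33), linked to autophagy of damaged membranes, and Trim11 (12 ± 5.56) followed. Among these 10 genes, Trim28 included, log2 fold changes ran from -0.33 to 0.66 with IFN-γ (lowest limma adjusted p = 0.456) and from -0.24 to 0.58 with IL-27 (lowest 0.705). The 95% intervals of the 10 reached from -1.04 to 1.5 with IFN-γ, the upper bound being that of Trim11, and so include the size of the rises of Trim21 and Trim56.

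Among the 16 less abundant other members the extremes were Trim68 and Trim47. Trim68, which lies near Trim21 on chromosome 7 (chr7:109826094-109835840, minus strand), was at 2.79, 1.70 and 1.80 FPKM with IL-33 alone and 4.62, 3.45 and 5.80 FPKM with IFN-γ. The groups did not overlap, but the log2 fold change of 0.86 ± 0.30 did not pass (limma adjusted p = 0.208). Trim47 was at 1.02, 1.4 and 3.5 FPKM with IL-33 alone and 0.508, 0 and 0.5 FPKM with IFN-γ, where each treated value is below the worth of 1 fragment in a 2 kb transcript. Its log2 fold change was -1.09 ± 0.40 (limma adjusted p = 0.224), and its exons overlap those of Trim65 on the same strand. With IFN-γ, 12 Trim genes were higher without overlap between the groups (10 inducible, with Trim44 and Trim68) and 3 were lower (Trim46, Trim47 and Trim62), against 11.9% and 8.65% of all tested genes.

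**Figure D4:**
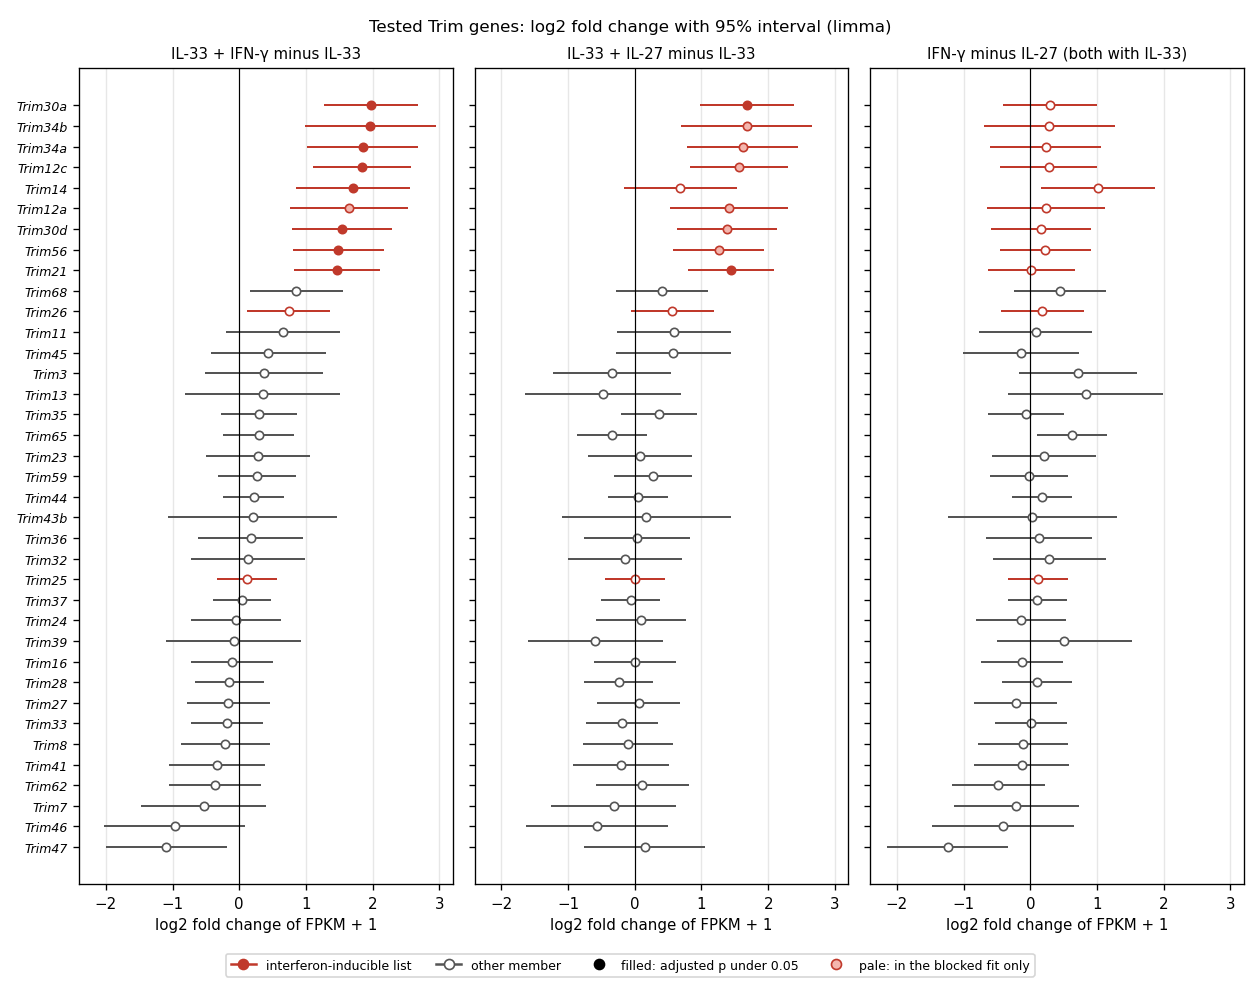
Log2 fold change of FPKM + 1 with 95% interval (limma) for the 37 tested Trim genes in the 3 comparisons; red marks the inducible list, filled points an adjusted p under 0.05 and pale points genes called with the library block only. The red genes at the top lie between 1.46 and 1.97 with IFN-γ, and the grey genes between -1.09 and 0.86.

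With IL-27, the same 11 inducible genes had a median log2 fold change of 1.41, against 0.02 for the other members and 0.01 for all tested genes. Both comparisons share the IL-33 control libraries, so they are not independent. Trim30a and Trim21 passed (2 of 11, and 0 of 26 other members), where 0.908% of all genes were called higher and 0.118% lower. With the library block 8 of the 11 passed, namely the 6 cluster genes, Trim21 and Trim56, against 3.37% of all genes higher and 1.78% lower. In these 8 genes the log2 fold change lay between 1.26 and 1.68. Among the other members the lowest adjusted p was 0.705 without and 0.197 with the block. Without overlap between the groups, 10 Trim genes were higher (9 inducible, with Trim45) and 1, Trim65, was lower, against 8.29% and 5.72% of all tested genes. Trim45 passed the filter only through the groups with an added cytokine (means of 0.634 FPKM with IL-33 alone and 1.42 FPKM with IL-27). Its place in this count is therefore no support for a rise.

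Set directly against each other, IFN-γ and IL-27 gave no call among the 37 Trim genes in limma with or without the block. Over all genes the share called was 0% higher and 0% lower without the block, and 0.0545% higher with IFN-γ and 0.127% lower with it. At an unadjusted p under 0.05 there were 3 Trim genes and 483 genes of any kind. The estimate was higher with IFN-γ in all 11 inducible genes, by a log2 fold change from 0.02 in Trim21 to 1.02 in Trim14, but leaving out 1 library turned the sign for Trim12a, Trim21, Trim25, Trim26 and Trim30d. For Trim14 the 95% interval was 0.18 to 1.86, with limma adjusted p = 1 without and 0.0666 with the block. For the 8 other genes that rose, the differences of 0.02 to 0.29 had intervals reaching from -0.68 to 1.25, so a difference of more than 2-fold between the cytokines lies within these intervals for at least 1 gene. The other 2 genes under the unadjusted limit were Trim65, a ligase for the RNA sensor MDA5, at 0.63 (interval 0.12 to 1.14), and Trim47, at -1.24 (interval -2.13 to -0.35). Trim14, Trim65 and Trim23 were higher with IFN-γ and Trim47 lower without overlap between the 2 groups, against 5.5% and 4.03% of all tested genes.

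Because FPKM is a level per transcript length, the family can also be summed. The 14 inducible genes summed to 109, 102 and 165 FPKM with IL-33 alone, 297, 287 and 438 FPKM with IFN-γ and 249.2, 234 and 363 FPKM with IL-27. The 52 other members summed to 335 to 362 FPKM with IL-33 alone, 336 to 375 FPKM with IFN-γ and 302 to 380 FPKM with IL-27, with overlap between all groups. The inducible genes thus made up 22.3 to 33% of all Trim FPKM with IL-33 alone, 44.2 to 55.8% with IFN-γ and 39.6 to 54.5% with IL-27.

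Library 3 of each group carried the highest inducible levels: it was the highest library for 10 of the 11 inducible genes with IL-33 alone, 11 with IFN-γ and 10 with IL-27. The deposited tables of these 3 libraries also carry 1 decimal where the others carry more. The summed level of 8 fibroblast genes, none at 0 throughout, ran from 2.92 to 36.2 FPKM with IL-33 alone. It ran from 3.94 to 86.5 FPKM with IFN-γ and 7.67 to 63.7 FPKM with IL-27, highest in library 3 each time. Lum was instead highest in library 1 of each group, at 16.8, 4.86 and 6.62 FPKM against 3.2, 2.1 and 1 FPKM in library 3. So was Dcn with IL-27. T cell genes summed to 34 to 82, 35.9 to 82.7 and 48 to 103 FPKM in the same groups. Cd3g was highest in library 3 each time. Cd8b1, the other tested T cell gene, was not. It was lowest in library 3 with IL-33 alone (2.52, 2.30 and 1.7 FPKM) and with IL-27 (3.97, 4.61 and 3.1 FPKM). With IFN-γ Cd8b1 was highest in library 1 (7.15, 1.52 and 6.6 FPKM). The untested Cd3e was highest in library 1 with IL-33 alone and with IL-27, and in library 2 with IFN-γ. B cell genes summed to 33.7 to 40.3, 20.3 to 84.8 and 33.2 to 57 FPKM. Cd79b was highest in library 2 of the controls and in library 3 otherwise. Macrophage genes summed to 3.72 to 11, 6.03 to 20.4 and 1.37 to 17.3 FPKM. Cd68 among them averaged 4.98, 12.3 and 6.90 FPKM. Its log2 fold change with IFN-γ was 1.28 (limma adjusted p = 0.502 without and 0.0632 with the block). Dendritic cell genes summed to 6.82 to 11.7, 9.67 to 10.6 and 9.6 to 12.4 FPKM. NK cell, mast cell, endothelial and adipocyte genes summed to at most 2.8, 4.5, 1.2 and 0 FPKM in any library. The part of these genes in the Trim levels was not tested. With libraries 1 and 2 only and the library block, an alternative chosen after seeing the data, 9 Trim genes among 459 genes of any kind were called with IFN-γ and 4 among 188 with IL-27. Without the block, 4 among 176 and 2 among 68 were called on those libraries. The labelled cell type was checked with 10 ILC2 genes, all expressed and summing to 5523 to 22121 FPKM. That sum was 14314 to 22121 FPKM with IL-33 alone, 5523 to 8561 FPKM with IFN-γ and 11572 to 11877 FPKM with IL-27. It is mostly the cytokine genes Il5 and Il13, which fell with IFN-γ together with Il2ra. Il1rl1 fell with IFN-γ in the blocked fit only (569 and 330 FPKM on average, log2 fold change -0.74, limma adjusted p = 0.387 without and 0.00486 with the block). Gata3 (205 and 221 FPKM on average with IL-33 alone and with IFN-γ), Klrg1 (215 and 214) and Ptprc (204 and 228) did not pass the test with IFN-γ in either fit. Rora, Il7r and Thy1 did not pass it either. In bulk RNA fewer cells of a type cannot be told apart from less RNA per cell. Among cytokine response genes, Irf1 and Gbp2 rose with both cytokines. Socs3 did not pass without the block, with log2 fold changes of -1.83 with IFN-γ (limma adjusted p = 0.249 without and 0.00136 with the block) and 0.13 with IL-27 (limma adjusted p = 0.983). Gbp2 was at 6.78 to 16.0 FPKM in the controls and 499 to 2056 FPKM in the treated libraries.

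Leaving out 1 library at a time separated Trim30a from the other calls. With IFN-γ its call held in all 9 omissions (highest limma adjusted p = 0.0448). Without the block it was the 1 Trim gene left when IL-33 library 1 or 2 or any IFN-γ library was omitted; 4 were left without IL-27 library 2 and 6 without IL-27 library 1. Trim34b also lost its call without IL-27 library 3. In those fits the adjusted p of the other 7 rose to at most 0.162, while their log2 fold changes stayed between 1.29 and 2.46. With the block, all 9 genes were called in every omission except Trim21 without IFN-γ library 2. With IL-27, the call of Trim30a held only without IL-33 library 3 or IFN-γ library 3 and that of Trim21 only without IL-33 library 3, with adjusted p up to 0.171 and 0.203 otherwise.

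Genes that work beside the TRIM ligases were read from 3 further lists. Of 7 family members that carry another symbol, 4 were tested and none was called without the block. Pml, the TRIM protein that organises nuclear bodies, was at 21.2, 13.9 and 18.4 FPKM with IL-33 alone and 27.3, 24.2 and 33.7 FPKM with IFN-γ, a log2 fold change of 0.65 with limma adjusted p = 0.163 without and 0.0337 with the block. Its groups did not overlap. Mefv, which encodes pyrin, was listed at 0 in all 9 libraries.

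Of 34 tested genes of RIG-I-like sensing, ISG15 conjugation and ubiquitin transfer, 5 rose with IFN-γ and none fell, with a median log2 fold change of 0.10. Over all tested genes 2.19% were called higher and 0.717% lower. The 5 were the ubiquitin-like modifier Isg15 (log2 fold change 2.93), its conjugating enzyme Ube2l6 (2.69), its ligase Herc6 (1.98), its protease Usp18 (3.56) and the transcription factor Irf7 (3.63). The block added Ddx58, which encodes RIG-I, its relatives Ifih1 and Dhx58, the kinase Ikbke and the ISG15-activating enzyme Uba7, for 10 of 34. With the block 6.51% of all tested genes were called higher. Ddx58, the substrate of Trim25, was at 11.8, 12.8 and 25.4 FPKM with IL-33 alone, 37.7, 36.2 and 55.9 FPKM with IFN-γ and 32.7, 43.5 and 58.9 FPKM with IL-27. It did not overlap the control in either group, while Trim25 overlapped in both. With IL-27, Herc6 (1.45), Ube2l6 (1.74) and Usp18 (2.41) rose, 3 of 34, and 9 of 34 with the block. The shares of all tested genes called higher with IL-27 were 0.908% without and 3.37% with the block. Of 9 genes known as partners of Trim28 or of the related Trim24 and Trim33, or for chromatin silencing beside them, none was called without the block. With it, Chd3, a chromatin remodeller, was higher with both cytokines (limma adjusted p = 0.0229 with IFN-γ and 0.0274 with IL-27). That is 1 of 9 genes, against 6.51% of all tested genes with IFN-γ and 3.37% with IL-27.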

How the data were processed

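RNA from the 9 libraries was sequenced after TruSeq RNA v2 preparation, per the labels' protocols. The deposited files hold 1 value per gene, read here as FPKM from the Cufflinks output form of the authors' tables. Per the submitters' processing notes, Bowtie2 2.1.0, TopHat2 2.0.8, Cufflinks 2.1.1 and mm9 were used. Digit-grouping commas in the library 3 tables were removed. 25 symbols that had become dates name no gene.

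Values were tested as log2(FPKM + 1) with limma 3.58.1 (R 4.3.3, intensity trend, all 3 groups, mean of at least 1 FPKM, two-sided, Benjamini-Hochberg over all tested genes, adjusted p under 0.05), after a check on simulated data. Deviations of same-numbered libraries from their group means correlated at 0.128 to 0.367 in all 9 pairs. In 18 pairs of other numbers they correlated at -0.298 to -0.0251. Deviations from a group mean cancel within the group, so these negative values follow on average from the positive ones and add no separate evidence. Because same-numbered libraries deviated together, the library number was also fitted as a block, and the blocked value is given where it changes a call. All standard errors and intervals, including those in the figures, come from the fit without the block and do not allow for this correlation. Depth was estimated from the steps between low values. Coordinates are from the GENCODE annotation of mm9. Named genes were all inducible members, any other member called in either fit and the 10 most abundant others. Trim members and all lists were chosen with earlier results of these data known. Alternatives covered the pseudocount, the filter, scaling, the trend, the block, the groups fitted and single libraries.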

Additional observations from a re-analysis of the deposited data

How the results depend on the processing

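For the 9 Trim genes called with IFN-γ and the 8 called with IL-27 in either fit, no log2 fold change against IL-33 reversed or moved by over 1.5 times under any alternative run. Uncalled members were less stable when 1 library was left out: Trim14 with IL-27 fell as low as 0.38, Trim26 and Trim11 with IFN-γ as low as 0.46 and 0.34, and signs turned with IFN-γ for Trim16, Trim24, Trim25, Trim28 and Trim37 among others. Without the filter on low values, 0 Trim genes were called with IFN-γ and 0 with IL-27, while 162 and 45 genes of any kind were. With only the 2 groups compared in the fit, 1 and 0 were called. With libraries 1 and 2 of each group, 4 were called with IFN-γ. Without the intensity trend, 0 were called with IL-27. The replicate block gave 9 with IFN-γ, 8 with IL-27 and 0 between the cytokines. The block with median centring gave 8 with IL-27, and the block on libraries 1 and 2 gave 4 with IL-27. Leaving out 1 library at a time gave 1 to 8 Trim genes with IFN-γ, 0 to 4 with IL-27 and 0 between the cytokines; with the block added, it gave 8 to 9, 5 to 8 and 0. The 5 with IL-27 came without IL-27 library 2, and 6 were called without IL-33 library 1, IL-33 library 2, IL-27 library 1 or IL-27 library 3, where calls among Trim21, Trim34b and Trim56 were lost. For these counts the cause was not tested. Other scalings, pseudocounts and a minimum mean of 5 FPKM kept the counts within 1.5 times, and list medians moved by less than the spread. The direct comparison stayed at 0 under every alternative run. Depth limits the low members: near 1 FPKM a value rests on a few fragments.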
